A study of Mus musculus with 9 samples.

Results

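The genes described are 10 transcripts that mark cortical inhibitory interneurons or encode their calcium-binding proteins: Gad1, Gad2, Slc32a1, Lhx6, Dlx1, Dlx2, Sst, Npy, Calb1 and Calb2. They were taken by symbol from a deposited expression table of 24054 rows, and all 10 were found. Primary cortical neurons of C57BL/6 wild-type mice were kept in culture for 6 days in Neurobasal medium with B27, a supplement whose formula includes T3. Of the 9 polyadenylated-RNA libraries, 3 came from normoxia, 3 from 7 h of hypoxia at 0.2% oxygen, and 3 from the same hypoxia with 10 nM T3 in the medium. T3 is the active thyroid hormone, triiodothyronine. The design asks which transcripts differ after hypoxia, and which differ between hypoxic cultures with and without added T3. There was no normoxic group with added T3. Libraries are named below by the number in the table's column header (normoxia 1 to 3, hypoxia 7 to 9, T3 11 to 13), and the numbers do not pair them.

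GABAergic interneurons are the inhibitory cells of the cortex. In the mouse most of them are born in the ganglionic eminences, where Dlx1 and Dlx2 act early and Lhx6 acts in the medial eminence lineage, and they migrate tangentially into the cortex. They make the transmitter GABA from glutamate with the enzymes encoded by Gad1 and Gad2, and load it into vesicles with the transporter encoded by Slc32a1. Subclasses are told apart by peptides such as somatostatin (Sst) and neuropeptide Y (Npy), and by cytosolic calcium-binding proteins such as calbindin (Calb1) and calretinin (Calb2). Calbindin and calretinin are also made by other neurons, so neither gene is a marker of interneurons alone.

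Several members are close relatives, and the sequences below show the longest stretch of coding sequence that each related pair shares, since reads that match both copies could be assigned to either. They were read from the longest coding transcript of each gene in GENCODE M21 (GRCm38, the build named mm10).
Gad1 and Gad2: cctcacaagatgatggg
Dlx1 and Dlx2: tccaagttcaagaag
Calb1 and Calb2: gaagagaatttc
These runs of 17, 15 and 12 bases were also the longest exact matches over the whole transcripts, and no pair shared a run of 30 bases. Dlx1 carries a different uncertainty. Dlx1as, an antisense transcript, overlaps all 5869 bases of the Dlx1 gene, and although the libraries were stranded, the strand setting of the counting is not given, so it is not known whether reads of the 2 genes were kept apart. Dlx1as had 14.0 to 25.7 CPM in the 9 libraries, above Dlx1 in each of them.

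Promoter windows from RefSeq (GRCm38.p6, 250 bases before to 50 after the start) were present for 8 of the 10 genes. Sst is shown because it is the textbook gene of the cyclic AMP response element, TGACGTCA. It was also chosen after its level relative to the GABA genes was seen not to overlap between normoxia and hypoxia. On its own level Sst was not called in any comparison, and a part of the element in its level was not tested. The 30 bases at chr16:23890874-23890903, minus strand, have the element in capitals, 48 to 41 bases before the RefSeq start. The GENCODE M21 gene, chr16:23889573-23890958, starts further upstream, so on that annotation the element lies inside the gene.
Sst: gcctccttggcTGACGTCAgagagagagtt
Among the 8 windows only that of Sst held this element, which is the same on both strands and was present in 1.79% of 32851 promoters. The homeobox core TAATTA was in 0 of the 8 windows and in 5.29% of all promoters. ACGTG, the core of the hypoxia response element, was in 1 of the 8 on either strand, that of Dlx2, against 19.6% of all. AGGTCA, the thyroid hormone receptor's half-site, was in 1 of the 8, that of Dlx1, against 16.3% of all. A letter match is a description of the window only.

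The values are read counts scaled by the authors to library size (TMM-normalized CPM), and 1 read was worth 0.0302 to 0.0565 CPM, at 17182338 to 33937842 reads per library. All 10 members passed the filter on low values, more than 1 CPM in at least 3 libraries, as did 12923 of all rows. The least abundant, Npy, rested on 82 to 249 reads per library. Glutamatergic neuron markers summed to 1671 to 2184 CPM over 16 genes, in accord with the label of cortical neurons. Markers of other cells were present as well: 12 astrocyte genes passed the filter and that list summed to 436 to 859 CPM. The 8 oligodendrocyte lineage genes summed to 41.0 to 213 CPM and the progenitor list to 61.5 to 279 CPM. None of the 8 microglia or 8 vascular markers passed the filter. In bulk RNA, fewer cells of a type and less RNA per cell cannot be told apart.

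Per kilobase of the longest coding transcript, Sst was the most abundant member in normoxia, at 134 ± 31.0 CPM per kb (SD, n = 3). Gad1 followed at 42.7 ± 7.95 CPM per kb. Slc32a1 and Calb1 came next, at 17.7 ± 4.31 and 15.7 ± 0.714 CPM per kb, and did not differ beyond their spread. Calb2, Lhx6, Gad2 and Npy lay between 7.27 and 9.78 CPM per kb. The ranges of mean ± SD of Lhx6, Gad2 and Npy overlapped. That of Calb2 (9.78 ± 0.838) overlapped those of Lhx6 and Npy but lay above that of Gad2 (7.35 ± 1.33). Dlx2 and Dlx1 were lowest, at 2.25 ± 0.419 and 1.99 ± 0.529 CPM per kb, again within their spread. After hypoxia Calb1 stood at 6.28 CPM per kb and Calb2 at 11.5, and with T3 at 4.62 and 17.6, so the order of these 2 genes in normoxia was turned around. The order assumes that the longest annotated transcript is the one expressed.

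**Figure D1:**
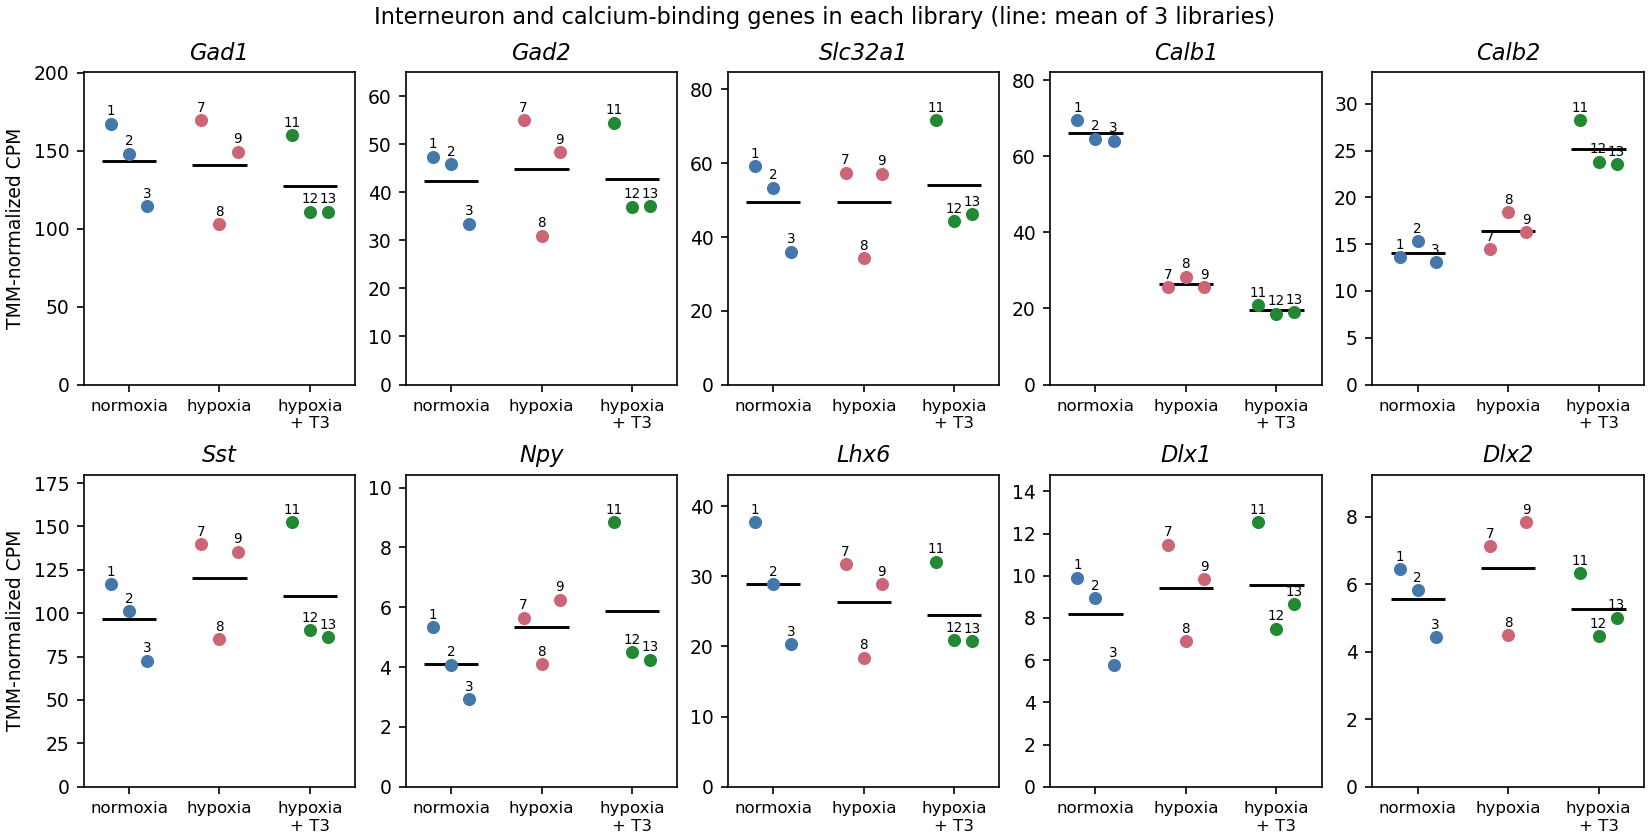
Level of each of the 10 genes in TMM-normalized CPM in the 3 normoxia, 3 hypoxia and 3 hypoxia with T3 libraries. Points are libraries, and lines give the group mean (n = 3). The Calb1 groups stand apart, from 64.1 to 69.6 CPM in normoxia down to 18.6 to 20.9 with T3, while the groups of Gad1, Gad2, Slc32a1, Sst, Npy, Lhx6, Dlx1 and Dlx2 overlap.

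Calb1 fell in hypoxia and was lower still with T3, and Calb2 was higher with T3. The other 8 genes were not called in any of the 3 comparisons. In hypoxia against normoxia 1 of the 10 members passed the test, in the lower direction, where 33.6% of all tested genes were called (14.3% higher and 19.3% lower). In hypoxia with T3 against hypoxia 2 members passed, 1 in each direction, where 6.48% of all tested genes were called (2.73% higher and 3.75% lower). In hypoxia with T3 against normoxia the count was again 2, 1 in each direction, against 55.1% of all tested genes (25.5% higher and 29.5% lower). The test was limma on log2(CPM + 1), two-sided, and a gene was called when its p-value, adjusted by Benjamini and Hochberg's method for all 12923 genes, was under 0.05. The last 2 comparisons share the T3 libraries, and the first 2 share the hypoxia libraries. The median log2 change of the 10 members was 0.11, -0.07 and 0.07 in the 3 comparisons.

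Calb1 encodes calbindin D28k, a cytosolic calcium buffer, and lies at chr4:15881264-15908064, plus strand. Its level was 69.6, 64.7 and 64.1 CPM in normoxia 1, 2 and 3, then 25.7, 28.3 and 25.5 CPM in hypoxia 7, 8 and 9, and 20.9, 18.6 and 19.0 CPM in T3 11, 12 and 13. No group overlapped another. Calb1 was the only member lower in all hypoxia libraries than in all normoxia libraries, as 27% of all tested genes were. The group means were 66.1 ± 3.01, 26.5 ± 1.59 and 19.5 ± 1.25 CPM (SD, n = 3), on 454 to 2141 reads per library. In hypoxia the log2 change from normoxia was -1.29 (SE 0.07, 95% interval -1.45 to -1.13, limma adjusted p = 1.1e-06). With T3 the log2 change from hypoxia alone was -0.42 (SE 0.07, 95% interval -0.59 to -0.26, limma adjusted p = 0.0162). Against normoxia the hypoxic cultures with T3 had a log2 change of -1.71 (SE 0.07, limma adjusted p = 4.8e-08). The call of the lower level with T3 than in hypoxia alone was lost when hypoxia 8 (-0.38, limma adjusted p = 0.083) or T3 12 (-0.39, limma adjusted p = 0.074) was left out.

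Calb2 encodes calretinin, a relative of calbindin with the same kind of calcium-binding EF hands, and lies at chr8:110137502-110168210, minus strand. In normoxia its level was 13.6, 15.3 and 13.0 CPM. Hypoxia 7, 8 and 9 had 14.5, 18.4 and 16.3 CPM, which overlapped normoxia. T3 11, 12 and 13 had 28.3, 23.8 and 23.6 CPM, all above every library of the other groups. Against normoxia Calb2 was the only member without overlap in the higher direction, as were 29.8% of all tested genes, and Calb1 the only member in the lower, as were 33%. Between hypoxia with T3 and hypoxia these were again the only such members, with 15.8% of all tested genes in each direction. The means were 14.0 ± 1.20, 16.4 ± 1.98 and 25.2 ± 2.65 CPM (SD, n = 3). The log2 change of hypoxia from normoxia was 0.21 (SE 0.11, 95% interval -0.03 to 0.45) and did not pass the test (limma adjusted p = 0.155). With T3 the log2 change from hypoxia was 0.59 (SE 0.11, 95% interval 0.36 to 0.83, limma adjusted p = 0.0197), and from normoxia 0.80 (95% interval 0.57 to 1.04, limma adjusted p = 1.2e-04). The T3 call against hypoxia was lost without hypoxia 7 (0.51, limma adjusted p = 0.066), without T3 11 (0.51, limma adjusted p = 0.086) and without T3 12 (0.63, limma adjusted p = 0.068). With every column scaled to the same sum, Calb2 was called in hypoxia against normoxia too, at a log2 change of 0.34 (limma adjusted p = 0.034), while the median of all genes moved by 0.13.

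**Figure D2:**
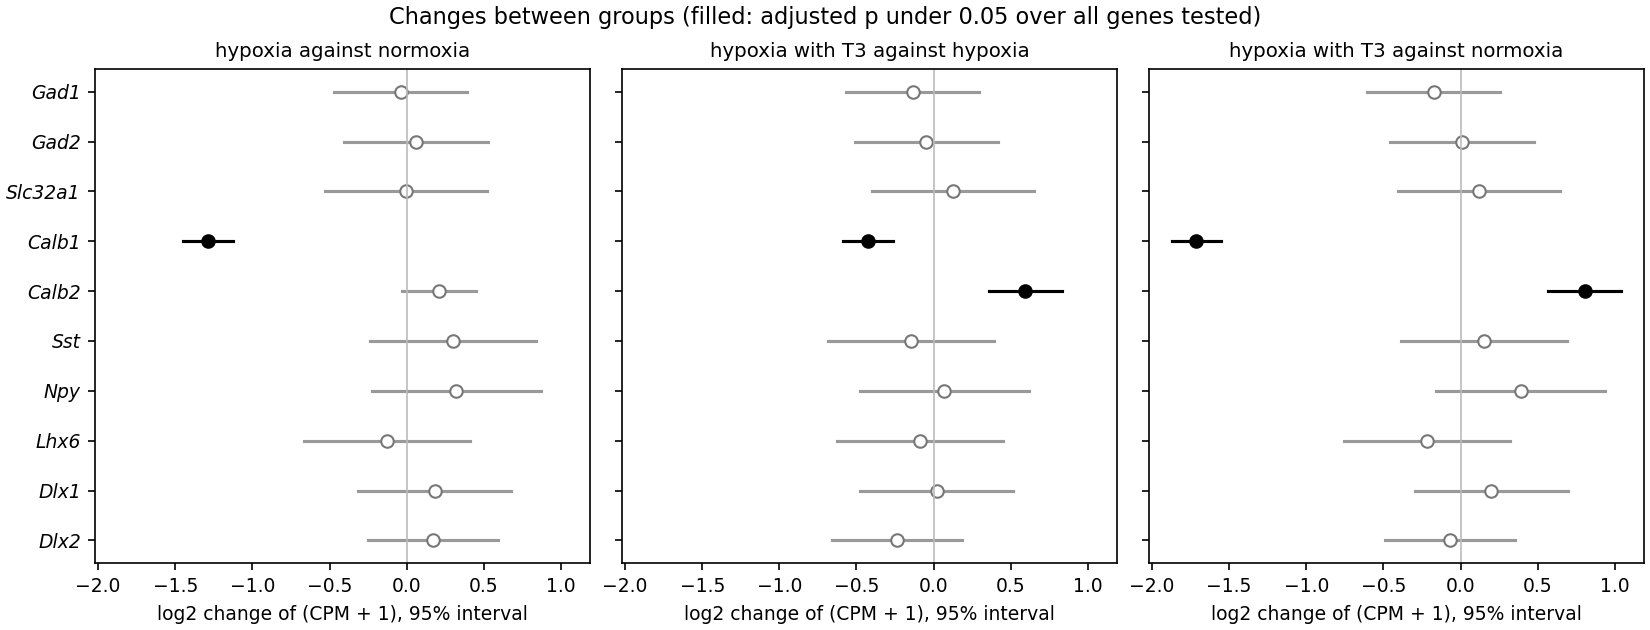
Log2 change of each member in the 3 comparisons, on the log2(CPM + 1) scale; points are limma estimates and bars their 95% intervals, with filled points for calls. Only Calb1 is called in hypoxia against normoxia (-1.29), and Calb1 (-0.42) and Calb2 (0.59) are called in hypoxia with T3 against hypoxia; both are called against normoxia with T3 (-1.71 and 0.80), and all other intervals include 0.

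Gad1 encodes the larger of the glutamate decarboxylases, which makes most of the cell's GABA, and lies at chr2:70553072-70602014, plus strand. Gad2, at chr2:22622205-22693874 on the plus strand, encodes the decarboxylase concentrated at nerve terminals. Slc32a1, at chr2:158610767-158615748 on the plus strand, encodes the vesicular transporter. Gad1 had 167, 148 and 115 CPM in normoxia, 170, 103 and 149 CPM in hypoxia, and 160, 111 and 111 CPM with T3. Gad2 had 47.4, 45.9 and 33.5 CPM in normoxia, 55.0, 30.9 and 48.3 CPM in hypoxia, and 54.5, 37.0 and 37.0 CPM with T3. Slc32a1 had 59.2, 53.4 and 36.1 CPM, then 57.4, 34.2 and 57.2 CPM, then 71.8, 44.3 and 46.2 CPM. In each of the 3 genes normoxia 3 and hypoxia 8 were low and T3 11 was high in its group, and the groups overlapped. The log2 changes of hypoxia from normoxia were -0.04 for Gad1, 0.06 for Gad2 and -0.01 for Slc32a1, none of them called. Their 95% intervals ran from -0.47 to 0.39, from -0.41 to 0.52 and from -0.53 to 0.52, so changes inside those bounds remain compatible with these data. With T3 the changes from hypoxia were -0.13, -0.05 and 0.13.

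The transcription factors gave the same picture at lower levels. Lhx6, at chr2:36081953-36105408 on the minus strand, encodes a LIM homeobox factor of medial eminence interneurons. Its levels were 37.7, 28.8 and 20.3 CPM in normoxia, 31.7, 18.4 and 28.9 CPM in hypoxia, and 32.1, 20.9 and 20.7 CPM with T3. Dlx1 (chr2:71528113-71533981, plus strand) and Dlx2 (chr2:71543408-71546754, minus strand) are a convergent pair of homeobox genes 9426 bases apart. Dlx1 had 9.91, 8.94 and 5.75 CPM in normoxia, 11.5, 6.90 and 9.83 CPM in hypoxia, and 12.5, 7.49 and 8.67 CPM with T3. Dlx2 had 6.45, 5.83 and 4.43 CPM, then 7.12, 4.48 and 7.84 CPM, then 6.32, 4.46 and 5.00 CPM. The groups of these 3 genes overlapped in every comparison. In hypoxia against normoxia the log2 changes were -0.13 for Lhx6, 0.18 for Dlx1 and 0.17 for Dlx2, with limma adjusted p-values of 0.718, 0.560 and 0.517.

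The peptide genes also overlapped between groups. Sst, the gene of an inhibitory peptide hormone, at chr16:23889573-23890958 on the minus strand, had 117, 101 and 72.7 CPM in normoxia, 140, 85.1 and 136 CPM in hypoxia, and 152 (T3 11), 90.3 and 86.2 CPM with T3. Npy, at chr6:49822710-49829507 on the plus strand, had 5.33, 4.08 and 2.93 CPM, then 5.65, 4.10 and 6.25 CPM, then 8.85, 4.49 and 4.25 CPM. For both genes T3 11 was the highest of the 9 libraries and normoxia 3 the lowest. The means of Sst were 96.9 ± 22.3, 120 ± 30.4 and 110 ± 37.2 CPM (SD, n = 3), and those of Npy 4.11 ± 1.20, 5.34 ± 1.11 and 5.86 ± 2.59 CPM. In hypoxia against normoxia the log2 change of Sst was 0.30 (95% interval -0.24 to 0.84, limma adjusted p = 0.364) and that of Npy 0.32 (95% interval -0.23 to 0.87, limma adjusted p = 0.339). Of the 8 members other than Calb1 and Calb2, 0 passed limma's test in each comparison, 0 had an unadjusted p under 0.05, and 0 were called by edgeR or DESeq2 on the recovered reads.

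The 8 uncalled genes varied together from library to library inside each group. Each of them ran in the order normoxia 1, 2, 3 from high to low, was lowest in hypoxia 8 among the hypoxia libraries, and was highest in T3 11 among the T3 libraries. This order was read from the members themselves, so it is a description. It held for 8 of the 10 members and for 446 of the 12923 tested genes, or 3.45%. Calb1 lacked it because hypoxia 8 was its highest hypoxia library, and Calb2 because normoxia 2 and hypoxia 8 were the highest of their groups. Over the 9 libraries the highest value was 1.65 times the lowest for Gad1 and 3.02 times for Npy, with the other 6 between. Among the other lists, the order was shared by 7 of 22 interneuron lineage transcription factors, among them Dlx5, Dlx6os1, Maf, Nr2f2 and Sp9. It was shared by 2 of 11 genes of GABA handling, Abat among them, and by 2 of 16 glutamatergic markers, Cux1 and Cux2. Both Cajal-Retzius markers that passed the filter, Reln and Cacna2d2, had it, as did 4 of 21 subtype and migration genes, Reln among them. None of the 12 astrocyte, 8 oligodendrocyte or 8 progenitor genes that passed the filter had it.

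Other cell lists also varied between the same libraries. The summed members had 533, 476 and 367 CPM in normoxia, 518, 334 and 485 CPM in hypoxia, and 548, 362 and 361 CPM with T3. The astrocyte list had 436, 450 and 587 CPM, then 483, 659 and 859 CPM, then 671, 831 and 604 CPM. The oligodendrocyte lineage list had 41.0, 82.2 and 144 CPM, then 79.7, 203 and 213 CPM, then 133, 189 and 136 CPM. In each group the library with the lowest oligodendrocyte sum, normoxia 1, hypoxia 7 or T3 11, had the highest members' sum, and in normoxia and hypoxia it also had the lowest astrocyte sum. Among normoxia and hypoxia libraries the highest glial sums were in normoxia 3, which had the lowest members' sum of its group, and in hypoxia 9, which did not. The medians of these lists were also above 0 in hypoxia against normoxia. With all 9 libraries, the share called was in no list above the 33.6% of all tested genes (14.3% higher). The median log2 change was 0.96 over 12 astrocyte genes (3 called higher, 1 lower) and 0.97 over 8 oligodendrocyte lineage genes (1 higher). It was 0.67 over 8 progenitor genes (0 called by limma, edgeR or DESeq2, and 1 at an unadjusted limma p under 0.05). These counts depended on single libraries. With 1 library left out, higher calls ranged from 2 to 6 in the astrocyte list. They ranged from 0 to 5 in the oligodendrocyte lineage list and from 0 to 5 in the progenitor list. Over all tested genes, 2955 to 4369 were then called in either direction. In hypoxia with T3 against hypoxia the 3 medians were 0.10, 0.02 and 0.02. The part of these cells in the members' values, and in the hypoxia changes of Calb1 and of the lists below, was not tested. Markers of 2 other interneuron classes were near 0: Pvalb had 0 to 0.16 CPM and Vip 0 to 0.28 CPM. Low values of these genes do not show that cells of those classes were absent.

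**Figure D3:**
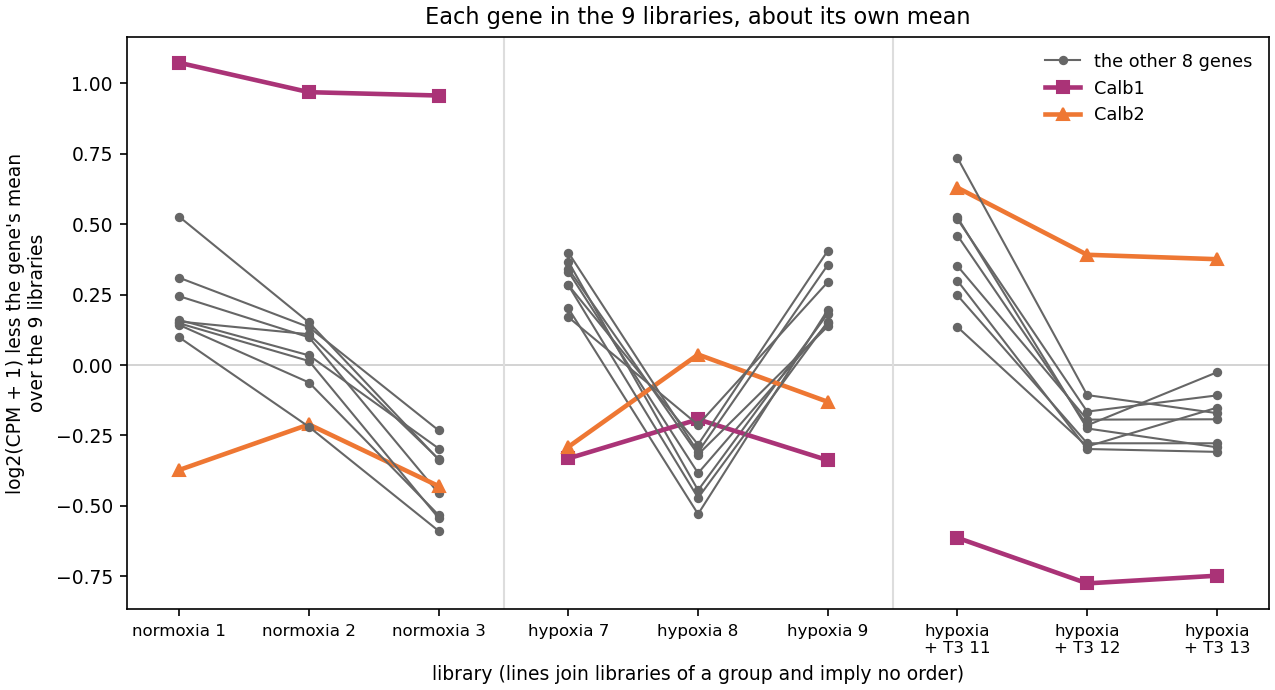
Level of each gene in the 9 libraries as the log2 difference from its own mean over all 9, with the libraries on the x axis by group. Within their groups, the 8 uncalled genes are lowest at normoxia 3 and hypoxia 8 and highest at T3 11. Calb1 steps down from group to group. Calb2 is higher with T3, while its normoxia and hypoxia libraries overlap.

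**Figure D4:**
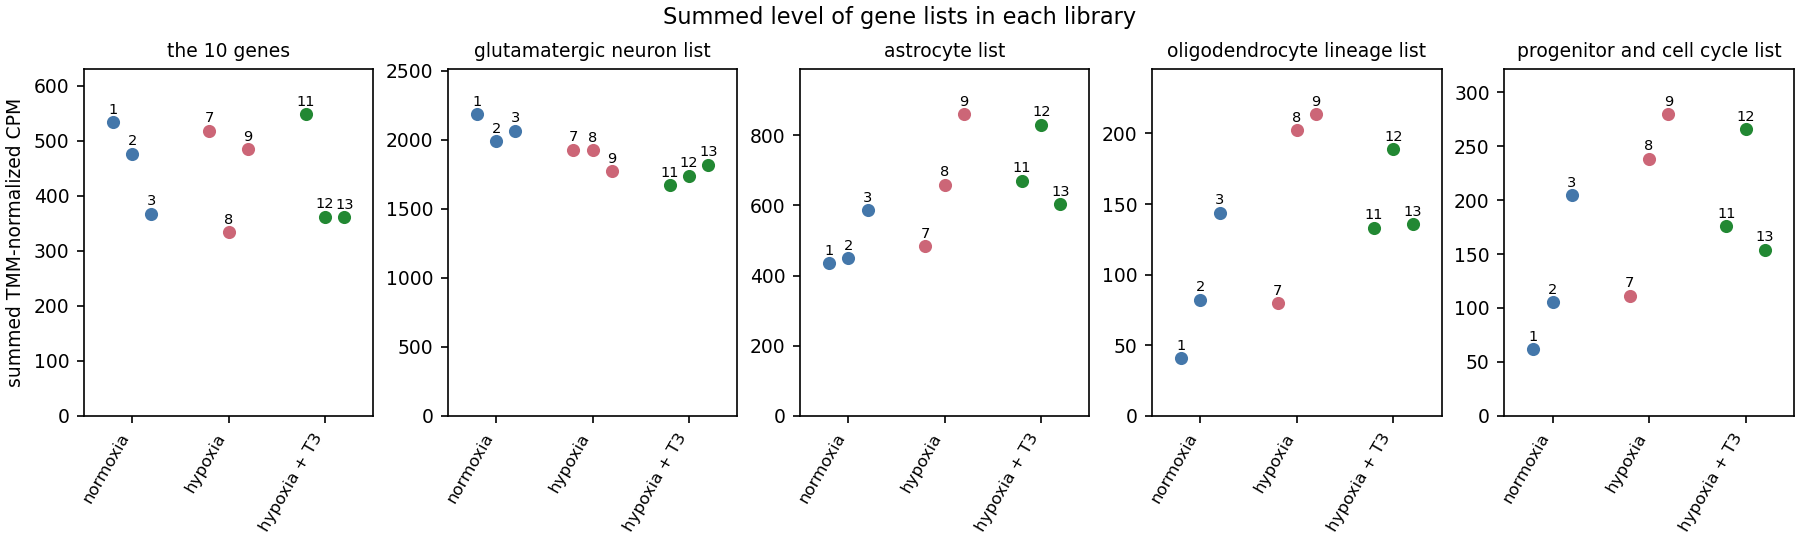
Summed CPM of the members and of the marker lists of other cell types in each of the 9 libraries. The members' sum is lowest in hypoxia 8 (334 CPM) and highest in T3 11 (548 CPM), and the astrocyte sum is highest in hypoxia 9 (859 CPM).

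Since Gad1, Gad2 and Slc32a1 mark GABAergic cells as a whole, the other 7 members were also set against the mean of these 3 in the same library, as a difference of log2(CPM + 1). On this scale Sst stood at 0.58, 0.50 and 0.48 in normoxia and at 0.77, 0.82 and 0.85 in hypoxia, with no overlap. With T3 it stood at 0.82, 0.66 and 0.57, between the other groups and overlapping each. As a share of the Gad1 level in the same library, the Sst level was 69.8%, 68.4% and 63.5% in normoxia, 82.3%, 82.6% and 90.7% in hypoxia, and 95.2%, 81.4% and 77.6% with T3. Npy, at -3.64, -3.83 and -3.75 in normoxia, was at -3.63, -3.26 and -3.38 in hypoxia and at -3.14, -3.40 and -3.48 with T3. The Npy gap between the closest normoxia and hypoxia libraries was thus very small. Lhx6 was lower in hypoxia, at -1.33 to -1.34, than in normoxia, at -1.03, -1.28 and -1.31, and with T3 it was at -1.39 to -1.43. Against Gad1 alone, the Lhx6 share overlapped between normoxia (17.7% to 22.5%) and hypoxia (17.8% to 19.3%).

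In hypoxia against normoxia the groups of 5 of these 7 genes did not overlap relative to the GABA genes: Sst, Npy and Dlx1 higher, Lhx6 and Calb1 lower. Over all tested genes 2.49% did not overlap in the higher direction and 2.11% in the lower. Nothing is read from that share, since this scale takes variation out of genes that vary with the GABA genes, as the members were seen to do, and adds it to the others. Between hypoxia with T3 and hypoxia only Lhx6 of the 7 did not overlap, in the lower direction (0.642% of all tested genes higher, 0.395% lower). On this scale Calb1 overlapped between them, at -1.63, -0.74 and -1.51 in hypoxia and -1.98, -1.56 and -1.55 with T3, and so did Calb2, at -2.41, -1.33 and -2.13 in hypoxia and -1.57, -1.22 and -1.25 with T3. In hypoxia with T3 against normoxia Calb2, Npy and Dlx1 were higher and Calb1 and Lhx6 lower without overlap (5.41% of all tested genes higher, 12.7% lower). The reference genes were not constant among themselves. With T3 against normoxia Gad1 stood 0.16 lower and Slc32a1 0.13 higher relative to the mean of the 3, both without overlap. With T3 against hypoxia Gad1 stood 0.12 lower and Slc32a1 0.14 higher, again without overlap. In hypoxia against normoxia Gad2 stood 0.05 higher without overlap, by a very small gap. Relative values thus depend on which GABA gene is taken. The count was 3 (Sst, Lhx6 and Calb1) with a pseudocount of 5 CPM in place of 1 CPM. In a fit added after the values had been seen, with the mean of the 3 GABA genes as a covariate, the log2 change of Sst in hypoxia was 0.29 (SE 0.06, limma adjusted p = 0.0048), where 34.6% of all tested genes were called. Sst kept this call in all 9 fits that left out 1 library, with limma adjusted p up to 0.036. The covariate takes out spread that Sst shares with the GABA genes, since the members were seen to vary together. The SE of Sst was 0.24 without the covariate and 0.06 with it, so the call and its stability rest on that choice. Npy had 0.32 in the covariate fit and was not called (limma adjusted p = 0.10), nor was Lhx6 at -0.13 (limma adjusted p = 0.232). Between hypoxia with T3 and hypoxia the covariate fit called Calb1 (-0.42) and Calb2 (0.59), where 10.6% of all genes were called, and Sst had -0.13 (limma adjusted p = 0.208). Against normoxia, where 56% were called, it also called Npy with T3 at 0.40 (limma adjusted p = 0.0296) and Sst at 0.17 (limma adjusted p = 0.0366). Those calls held in 5 of 9 fits for Npy and 4 of 9 for Sst when 1 library was left out. Gad1, Gad2 and Slc32a1 form the covariate, so their own values in this fit are not counted.

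**Figure D5:**
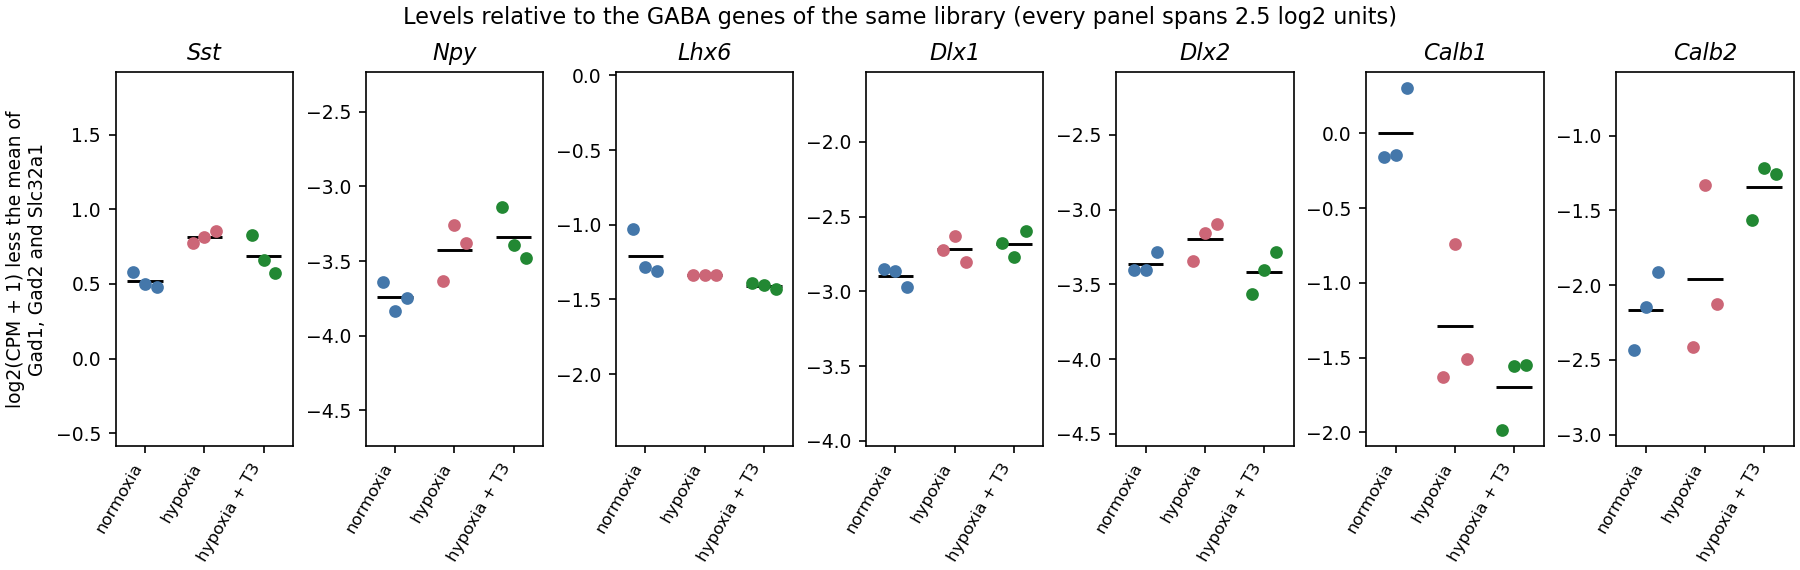
Level of the other 7 members relative to the mean of Gad1, Gad2 and Slc32a1 in the same library, as a difference of log2(CPM + 1); points are libraries and bars group means, and every panel spans the same number of log2 units. The highest normoxia value of Sst is 0.58 and its lowest hypoxia value 0.77, and Calb1 shows the widest gap between groups.

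Of 11 genes of GABA handling and the inhibitory synapse beyond the members, 5 fell and 1 rose in hypoxia against normoxia, with a median log2 change of -0.22, beside 19.3% of all tested genes lower and 14.3% higher. In the same comparison 5 of 16 glutamatergic and 3 of 8 general neuron genes fell, and 1 of each list rose. Gphn, the scaffold gephyrin of inhibitory synapses, went from 74.6 to 52.8 CPM (-0.49, limma adjusted p = 0.0023). Slitrk3, an adhesion protein of inhibitory synapses, had a log2 change of -0.42 (limma adjusted p = 0.0064). Another of the 5, Slc6a11 (-0.23, limma adjusted p = 0.0443), is named because it is also in the astrocyte list. There it is the 1 gene called lower, so it is counted in both lists. The gene that rose was Slc12a5, the neuronal chloride exporter KCC2, at 0.27 (limma adjusted p = 0.0124), and it is named because it was the only one. With equal column sums 3 fell and 1 rose. Between hypoxia with T3 and hypoxia limma called 0 of the 11, with 6 at an unadjusted p under 0.05, and edgeR called 0 and DESeq2 2.

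Transcription factors of the interneuron lineage gave 7 lower and 1 higher of 22 tested, both in hypoxia against normoxia and in hypoxia with T3 against hypoxia. In hypoxia that total of 8 is near the 33.6% of all tested genes called (19.3% lower and 14.3% higher). With T3 the share over all tested genes was 6.48% (3.75% lower and 2.73% higher). Of 16 glutamatergic genes, 4 were lower with T3 too. Satb1, a chromatin organizer needed by somatostatin interneurons, went from 223 to 108 CPM in hypoxia (-1.04, limma adjusted p = 2.4e-05). Meis2 changed by -0.61 in hypoxia and by a further -0.50 with T3 (limma adjusted p = 0.0218). Zeb2, which acts downstream of the Dlx genes in steering interneurons to the cortex, changed by -0.70 with T3 (limma adjusted p = 0.0179). Several of these factors are also made by glutamatergic neurons. When 1 library was left out, the T3 counts ranged from 0 to 7 lower and from 0 to 1 higher, and with equal column sums the hypoxia counts were 4 lower and 3 higher.

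Of the subtype and migration genes, 8 of 21 fell and 5 rose in hypoxia, and 4 fell with T3, beside 33.6% and 6.48% of all tested genes called. Robo2, a receptor for the Slit guidance proteins, went from 196 to 81.9 CPM in hypoxia (-1.25, limma adjusted p = 1.7e-07) and changed by -0.29 with T3. Robo1, its relative, changed by -0.81 with T3 (limma adjusted p = 0.0218). Erbb4, the neuregulin receptor of migrating interneurons, changed by -0.86 in hypoxia and by -0.85 with T3 (limma adjusted p = 0.0375). Cck, a peptide gene listed here as a marker of another interneuron class, rose from 8.70 to 16.2 CPM in hypoxia (0.83, limma adjusted p = 5.4e-04). Bulk RNA does not show in which cells the genes of this list changed. Without 1 library at a time, 0 to 5 of the list were lower with T3.

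Among 28 other calcium-binding proteins and their partners, 9 fell and 2 rose in hypoxia, with a median log2 change of -0.05. Both directions together are near the 33.6% of all tested genes called, of which 19.3% were lower and 14.3% higher. Necab1, an EF-hand protein of neurons, went from 302 to 176 CPM (-0.77, limma adjusted p = 2.9e-05). Kcnip4, an EF-hand subunit of A-type potassium channels, went from 13.5 to 4.04 CPM (-1.55, limma adjusted p = 8.9e-05). With T3, 2 of the 28 were called against hypoxia: Camk2n1, an inhibitor of CaM kinase II, rose by 0.57 (limma adjusted p = 0.0125), and Caln1, a neuronal EF-hand protein, changed by -0.38 (limma adjusted p = 0.0460). Leaving out 1 library gave 0 to 2 calls in each direction with T3. With equal column sums 8 fell and 8 rose in hypoxia against normoxia.

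For the 2 members that were called, the 3 tested genes with the most similar profile over the 9 libraries were listed by Pearson's r on log2(CPM + 1), as a description. Calb1 was most like Lsamp (r = 0.995), Ssbp2 (0.994) and Robo2 (0.992). Calb2 was most like Dlk1 (0.971), Hcrtr1 (0.968) and Rasl10a (0.965), whose means in normoxia were 0.43, 0.16 and 0.55 CPM. The libraries share group and depth, so these values carry no test.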

How the data were processed

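Per the labels, the libraries were stranded and poly-A selected. The submitters' processing notes name the genome build mm10 and the tools RSEM 1.2.15, Bowtie2 2.1.0 and edgeR; annotation, strand setting and filters are not given in the sources used here. The deposited values are a signal scaled by the authors, TMM-normalized CPM; the columns sum to 945822 to 1091200. By library, 99.8878% to 99.9958% of values were whole multiples of 1 read (within 0.01 reads), which gave the recovered reads. RSEM estimates need not be whole, so the counting step behind these values is unclear. Values off the step were found in 35 rows, none of them a member. An unnamed column with 4 numbers (1 column in all) matched no sample and was unused.

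All 9 libraries were fitted in R 4.3.3 with limma 3.58.1 (variance trend) on log2 of the value plus 1, for the 12923 genes above 1 CPM in at least 3 libraries. The script was tested on simulated data. Alternatives were other pseudocounts, filters and scalings, 2 groups only, no trend, count tests on the recovered reads (DESeq2 1.42.0, and the quasi-likelihood test of edgeR 4.0.16), and each library left out. The covariate of Gad1, Gad2 and Slc32a1 was chosen after seeing the data. Named genes are all members, up to 4 called genes of each list by smallest adjusted p in either of the first 2 comparisons, and the 3 genes most like each called member. Some genes that this rule names are not reported here. Members and lists were chosen with earlier results of these data known. The labels do not say whether libraries are separate cultures or animals, so p-values measure only the spread between these samples, which may be technical.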

Additional observations from a re-analysis of the deposited data

How the results depend on the processing

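The covariate counts are over the 7 members other than Gad1, Gad2 and Slc32a1, which form the covariate. The members called in hypoxia against normoxia numbered 1, and 2 with equal column sums (Calb2 added) and with the covariate of the 3 GABA genes (Sst added), or 2 to 3 with that covariate and 1 library left out. In hypoxia with T3 against hypoxia the count of 2 ranged from 0 to 2 when 1 library was left out, also with the covariate. In hypoxia with T3 against normoxia the count of 2 was 4 with the covariate, and 2 to 4 with 1 library left out as well. The 5 members whose groups did not overlap relative to the GABA genes were 3 with a pseudocount of 5 CPM, and 5 to 6 with 1 library left out. No called member changed direction under any alternative; uncalled members did, such as Gad1 in hypoxia, from -0.19 to 0.17 with 1 library left out. Over all genes the 838 calls of hypoxia with T3 against hypoxia were 1728 with DESeq2, 1374 with the covariate, 277 with only 2 groups, 234 without the variance trend, 172 without the filter, and 31 to 1827 with 1 library left out. With equal column sums 3982 genes were higher and 1229 lower in hypoxia (1846 and 2497 as deposited), and 4536 and 2849 in hypoxia with T3 against normoxia (3300 and 3817). No paired analysis was possible because the numbers in the hypoxia and T3 column headers match no replicate number in the sample titles. Groups of 3 libraries limit the precision for the 8 genes that vary within groups; Npy and Dlx2 also rest on few reads.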

Other observations

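Neuropeptide and granule genes other than Sst and Npy moved in both directions. Of 16 tested, 4 rose and 6 fell in hypoxia against normoxia, and 2 rose and 3 fell with T3 against hypoxia, while with equal column sums 8 rose and 4 fell in hypoxia. Over all tested genes 33.6% and 6.48% were called in these 2 comparisons. With 1 library left out the counts were 2 to 5 higher and 4 to 6 lower in hypoxia, and 0 to 3 in each direction with T3. Vgf, a granule protein of active neurons, had 299 ± 35.7 CPM in normoxia and 493 ± 35.4 in hypoxia (SD, n = 3; log2 change 0.72, limma adjusted p = 1.3e-04). Pcsk2 and Pam, enzymes that cut and amidate peptide precursors, changed by -0.89 and -0.64 in hypoxia (limma adjusted p = 1.4e-04 and 3.2e-04). With T3, Adcyap1, the precursor of PACAP, changed by -0.65 against hypoxia (limma adjusted p = 0.0094). The granins Chga and Chgb rose with T3 by 0.42 and 0.32 (limma adjusted p = 0.0182 and 0.0179).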
